A study of Rattus norvegicus with 8 samples.

Results

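The regulators of G protein signalling measured here were 9 rat genes, Rgs2, Rgs3, Rgs4, Rgs5, Rgs7, Rgs8, Rgs10, Rgs14 and Rgs19. They were chosen by gene symbol, and every probe set annotated with 1 of these symbols was taken, which gave 13 of the 31142 probe sets on 2 chips. Probe sets with 1 symbol named 13810 genes in all. All 13 Rgs probe sets lay on chip A, and 0 on chip B. Rgs3 had 3 probe sets, Rgs2 and Rgs4 had 2 each, and the remaining 6 genes had 1 each. RNA came from PC12, a line grown from a rat pheochromocytoma, a tumour of the catecholamine-making cells of the adrenal medulla. Forskolin, a plant diterpene that switches on adenylyl cyclase and so raises cyclic AMP, was compared with no forskolin, which the series title calls an inactive control. Each chip was hybridised with RNA of 2 forskolin samples and 2 samples without forskolin. What dose was used, for how long, and what the control contained are not given here. The labels do not say whether replicates were separate cultures of this 1 cell line, so the p-values cover only how far these samples spread, possibly for technical reasons.

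G protein-coupled receptors act by loading the alpha subunit of a G protein with GTP. RGS proteins share a domain that speeds the hydrolysis of that GTP, which ends the signal and lets the subunits rejoin. Family members differ in the alpha subunits they act on, in the partners they bind and in how quickly they are made and destroyed. In neurons and neuroendocrine cells they limit how strongly and how long receptors for transmitters and peptides signal.

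The values are the deposited log2 expression levels, 1 per probe set and array. The medians of the 4 arrays of chip A lay between 8.15 and 8.17. A probe set was tested where its mean level passed the dimmest 30% of the chip, which on chip A meant a mean of at least 7.02 (log2), and 11106 of 15866 probe sets passed. "Rose" and "fell" are used for calls, that is for a limma p below 0.05 after Benjamini-Hochberg adjustment over every tested probe set of that chip. Each change is forskolin minus no forskolin on the log2 scale, given with limma's moderated standard error (SE) and n = 2 arrays per group. Of the 10 PC12 and sympathoadrenal markers, 8 had a probe set on chip A and 6 passed the filter, among them Th, which makes the precursor of all catecholamines. Dbh and Slc18a1 did not pass. The summed linear level of the 8 markers was 12904 to 12934 in forskolin arrays and 9883 to 9995 in arrays without forskolin, and 2 of them, Gata2 and Phox2a, rose. Markers of fibroblasts passed in 3 of 6, of glia in 2 of 5 and of blood and endothelium in 2 of 5 genes on chip A. None of the 7 that passed was called, and the sums over all genes of each list on the chip were 4715 to 4807 against 4640 to 4679 for fibroblasts, 657 to 664 against 621 to 651 for glia, and 578 to 582 against 576 to 578 for blood and endothelium, forskolin against no forskolin. Their part in the results was not tested. In bulk RNA, fewer cells that express a gene and less RNA of it per cell cannot be told apart.

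Of the 9 genes, Rgs2 rose 2.75-fold and 2.81-fold with forskolin on its 2 probe sets, Rgs4 fell 1.12-fold on 1 of its 2 probe sets, a call lost in 7 of 12 other ways of processing, and no probe set of the other 7 genes was called. Of the 13 probe sets, 11 passed the filter, covering 8 genes, and Rgs5 and 1 Rgs3 probe set did not. Limma called 2 of the 11 higher and 1 lower. Over all tested probe sets of chip A, 3.30% were called, 2.03% higher and 1.26% lower. The 2 higher calls are both of Rgs2, which passed the filter only through its forskolin arrays, so the count of 2 among 11 is not read against those shares. With a filter on the arrays without forskolin alone, or one at the 50th percentile, 0 of the Rgs probe sets were called higher. The median change was 0.01 over the 11 and -0.01 over all tested probe sets (log2).

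**Figure D1:**
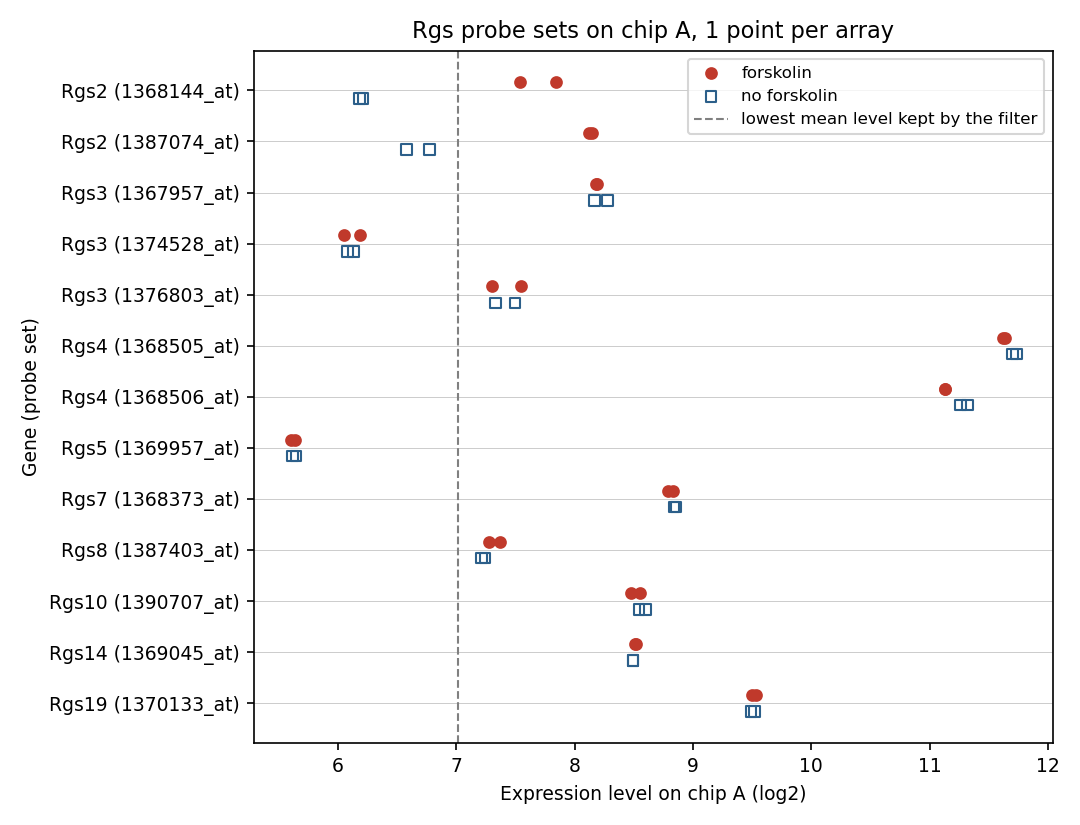
Expression level (log2, horizontal) of the 13 Rgs probe sets on each array of chip A, with forskolin arrays as filled circles above and arrays without forskolin as open squares below each line, and the lowest mean level kept by the filter (7.02) dashed. The 2 Rgs2 probe sets are the ones whose groups stand clearly apart, and their squares lie left of the dashed line.

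Most members belong to the R4 subfamily, small proteins that are little more than an RGS domain with a short leader at the amino end. Rgs2 acts above all on Gq, the alpha subunit that drives phospholipase C, and can also bind adenylyl cyclases and lower their output. Its mRNA is known as an early response to cyclic AMP and other stimuli in many cell types. Probe set 1387074_at measured 8.14 and 8.12 in the forskolin arrays, against 6.77 and 6.58 in the arrays without forskolin (log2). Both forskolin arrays stood above both others, with a gap of 1.35 between the nearest of them. The means were 8.13 ± 0.01 with forskolin and 6.68 ± 0.14 without (SD, n = 2), a change of 1.46 ± 0.07 (SE), or 2.75-fold with a 95% interval of 2.47-fold to 3.05-fold (limma adjusted p = 3.57e-06).

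The second Rgs2 probe set, 1368144_at, measured 7.54 and 7.84 in forskolin arrays, against 6.21 and 6.18 without forskolin. Here the forskolin arrays differed more from each other than the arrays without forskolin did, and the groups again did not overlap. The change was 1.49 ± 0.09 (SE), or 2.81-fold with a 95% interval of 2.44-fold to 3.24-fold (limma adjusted p = 2.39e-05). Both probe sets are annotated with the same sequence record, and their changes differed by 0.03 (log2). Among the 11106 tested probe sets of chip A these were the 16th and the 18th largest rises. All 4 Rgs2 values without forskolin lay below 7.02, so both probe sets passed the filter through their forskolin arrays, and a filter on the arrays without forskolin alone left Rgs2 untested. How far those levels lie above background is not known, which leaves the size of the rise uncertain.

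The promoter windows of Rgs2 and Rgs4, the called genes, are shown because cyclic AMP acts on many promoters through the factor CREB, whose element is TGACGTCA and whose core is TGACG. Both sequences are from RefSeq (rat build GRCr8), written 5′ to 3′ along the gene from 250 bases before its start to 50 after it, on the minus strand at chr13:58352617-58352916 for Rgs2 and chr13:84475835-84476134 for Rgs4. The capitals mark this core, here on the opposite strand of the window.
Rgs2: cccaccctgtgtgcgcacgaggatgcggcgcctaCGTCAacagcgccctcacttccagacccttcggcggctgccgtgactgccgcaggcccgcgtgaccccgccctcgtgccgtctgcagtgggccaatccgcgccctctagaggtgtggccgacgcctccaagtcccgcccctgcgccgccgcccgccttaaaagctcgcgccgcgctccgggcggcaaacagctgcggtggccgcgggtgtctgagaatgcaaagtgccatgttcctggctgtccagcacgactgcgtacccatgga
Rgs4: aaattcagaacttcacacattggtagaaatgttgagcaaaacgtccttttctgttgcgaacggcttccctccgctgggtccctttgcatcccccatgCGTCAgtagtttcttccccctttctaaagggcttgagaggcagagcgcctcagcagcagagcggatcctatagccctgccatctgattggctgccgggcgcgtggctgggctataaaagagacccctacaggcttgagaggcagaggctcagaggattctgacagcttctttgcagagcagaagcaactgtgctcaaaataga
A window was found for each of the 9 genes and for 33469 annotated genes in all. The search covered both strands, only around the annotated start used, so any other start of a gene was not searched. The core, which is also contained in the full element, was in 3 of the 9 windows, those of Rgs2 (bases -216 to -212 from the start), Rgs4 (-153 to -149) and Rgs3 (-29 to -25), and in 21.2% of all windows. The full element was in none of the 9 and in 1.83% of all windows. The AP-1 element TGANTCA (7.33% of all windows) and the element of single NR4A receptors, AAAGGTCA (1.43%), were also in none of the 9. A gene that rose, one that fell and one that was not called shared the core, and a match of letters does not show that a factor binds.

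Rgs4, a regulator of Gi, Go and Gq that is abundant in neurons, went the other way from Rgs2 and by far less. Probe set 1368506_at measured 11.13 in both forskolin arrays, against 11.26 and 11.32 without forskolin (log2). Both forskolin arrays lay below both others. The means were 11.13 ± 0.0002 with forskolin and 11.29 ± 0.04 without (SD, n = 2), a change of -0.16 ± 0.03 (SE), a 1.12-fold fall with limma adjusted p = 0.0441. Of the 140 probe sets called lower on chip A, 136 fell by more. The call was lost in 7 of 12 other ways of processing. Among the 7, the test against 1.2-fold could not call a 1.12-fold fall. Leaving out forskolin replicate 1, forskolin replicate 2 or no forskolin replicate 2 left 1 array in that group. The changes were then -0.16, -0.16 and -0.13 (log2). The lowest limma adjusted p over all of the ways was 0.00961, with median centring.

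The other Rgs4 probe set, 1368505_at, which is annotated with the same sequence record, measured 11.62 and 11.64 in forskolin arrays, against 11.70 and 11.73 without forskolin. Its groups did not overlap either, in the same direction. The change was -0.09 ± 0.03 (SE, 95% interval -0.16 to -0.02), which limma did not call (adjusted p = 0.182), and it kept its direction without a call under every alternative tried. The 2 probe sets' changes differed by 0.07 (log2). Rgs4 protein is known for its short life in mammalian cells: its second residue is a cysteine that marks it for the N-degron pathway, so its mRNA and protein levels need not follow each other.

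**Figure D2:**
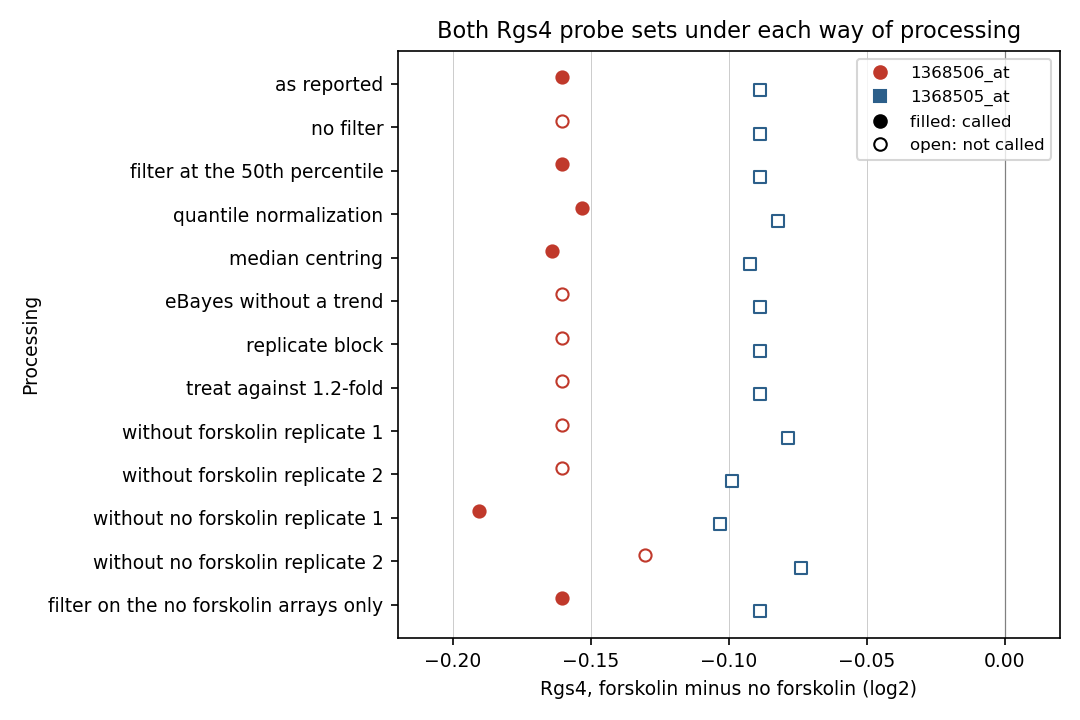
Change of the 2 Rgs4 probe sets (forskolin minus no forskolin, log2, horizontal) as reported and under 12 other ways of processing (rows), circles for 1368506_at and squares for 1368505_at, filled where limma called them. All points lie left of 0, from -0.19 to -0.13 for 1368506_at and from -0.10 to -0.07 for 1368505_at, and the squares are open throughout.

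Rgs5, another R4 protein with the same kind of amino-terminal cysteine, is best known from pericytes and vascular smooth muscle. Its probe set 1369957_at measured 5.63 and 5.60 with forskolin, against 5.62 and 5.64 without (log2). All 4 values lay below the filter, and the groups overlapped. In a fit of all probe sets of the chip the change was -0.01, with a 95% interval of -0.12 to 0.09 (limma adjusted p = 0.933). No detection call was used, so whether Rgs5 was present is not known.

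Rgs8, an R4 regulator of Gi and Go known from cerebellar Purkinje cells, measured 7.37 and 7.28 in forskolin arrays, against 7.24 and 7.21 without forskolin. The groups did not overlap, by a gap of 0.03. Its change of 0.10 ± 0.05 (SE, 95% interval -0.02 to 0.22) was not called by limma (adjusted p = 0.387), and it was the largest of any tested probe set of the set outside Rgs2 and Rgs4.

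Rgs3 acts on Gi and Gq subunits and is made in several forms of very different length, so its probe sets need not report the same transcripts. Probe set 1367957_at measured 8.19 and 8.18 with forskolin, against 8.28 and 8.17 without (log2). The change was -0.04 (95% interval -0.15 to 0.07, limma adjusted p = 0.738). The groups overlapped. The other 2 Rgs3 probe sets, each annotated with a sequence record of its own, overlapped as well. Probe set 1376803_at measured 7.55 and 7.30 with forskolin and 7.49 and 7.33 without, a change of 0.01 (95% interval -0.19 to 0.21, limma adjusted p = 0.977). Probe set 1374528_at, under the filter, measured 6.18 and 6.05 with forskolin and 6.13 and 6.08 without. In both of these the first replicate was above the second in each group.

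Rgs7, the R7 member, is a larger neuronal regulator of Go that is stable only when bound to Gnb5, an unusual G beta subunit. It measured 8.79 and 8.83 with forskolin, against 8.84 and 8.86 without (log2). The forskolin arrays were the lower ones, by a gap of 0.01, and the change of -0.04 ± 0.04 (SE) was not called by limma (adjusted p = 0.650). Gnb5 measured 8.93 and 8.80 with forskolin and 8.92 and 8.87 without, and was not called either (-0.02, limma adjusted p = 0.863).

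The R12 members are Rgs10, a small protein that is prominent in microglia, and Rgs14, a scaffold that carries Ras-binding and GoLoco domains beside its RGS domain. Rgs10 measured 8.48 and 8.56 with forskolin, against 8.60 and 8.54 without, which overlapped, and changed by -0.06 ± 0.05 (SE, limma adjusted p = 0.585). Rgs14 measured 8.51 and 8.52 with forskolin, against 8.49 in both arrays without forskolin. These groups did not overlap, but the change was 0.02 ± 0.04 (SE, limma adjusted p = 0.846). Rgs19, of the RZ subfamily, was found as a partner of a Gi subunit and binds the adaptor Gipc1. It measured 9.50 and 9.53 with forskolin, against 9.52 and 9.49 without, an overlap, with a change of 0.01 ± 0.04 (SE, limma adjusted p = 0.937).

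**Figure D3:**
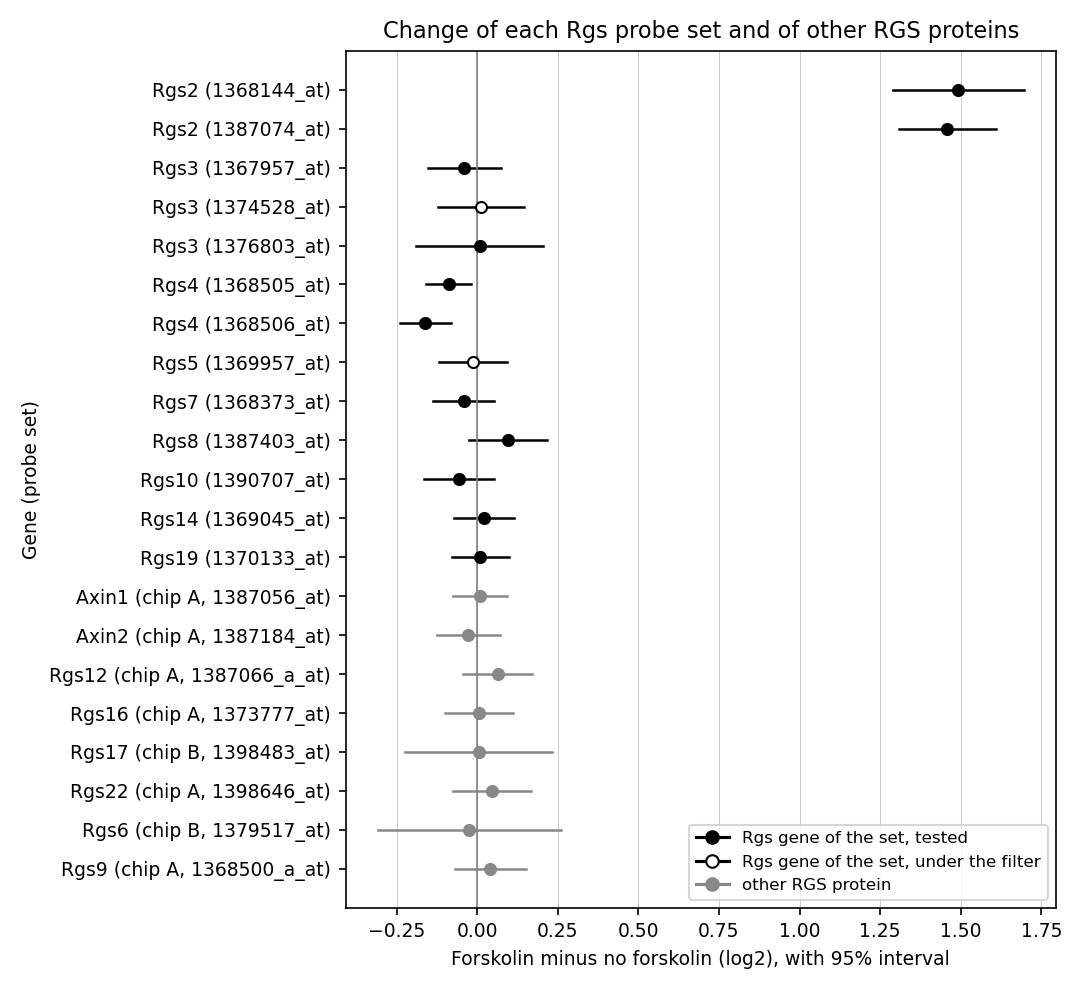
Change of each of the 13 Rgs probe sets (black) and of 8 other RGS proteins (grey), forskolin minus no forskolin (log2, horizontal), with limma's 95% intervals, where open circles are probe sets under the filter whose intervals come from a fit of all probe sets of the chip. The Rgs2 probe sets stand at 1.46 and 1.49, and the changes of the other Rgs probe sets lie between -0.16 and 0.10.

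Outside Rgs2 and Rgs4, the 7 tested probe sets of 6 genes changed by -0.06 to 0.10 (log2), 4 of them above 0 and 3 below, with standard errors of 0.04 to 0.09. Their 95% intervals reached at most a 1.16-fold change in either direction, which does not show that these genes did not respond. Groups did not overlap in 7 of the 11 tested probe sets, or 63.6%, against 48.5% over all tested probe sets of chip A. With 2 arrays against 2, an exact permutation test cannot give a two-sided p under 0.333. At an unadjusted limma p under 0.05, 4 of the 11 probe sets were past the threshold, the 2 of Rgs2 and the 2 of Rgs4, where the share over all tested probe sets was 17.4%. In both of these counts the Rgs2 probe sets are among the 11 only because their forskolin arrays lifted them over the filter, so neither count is read against its share.

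**Figure D4:**
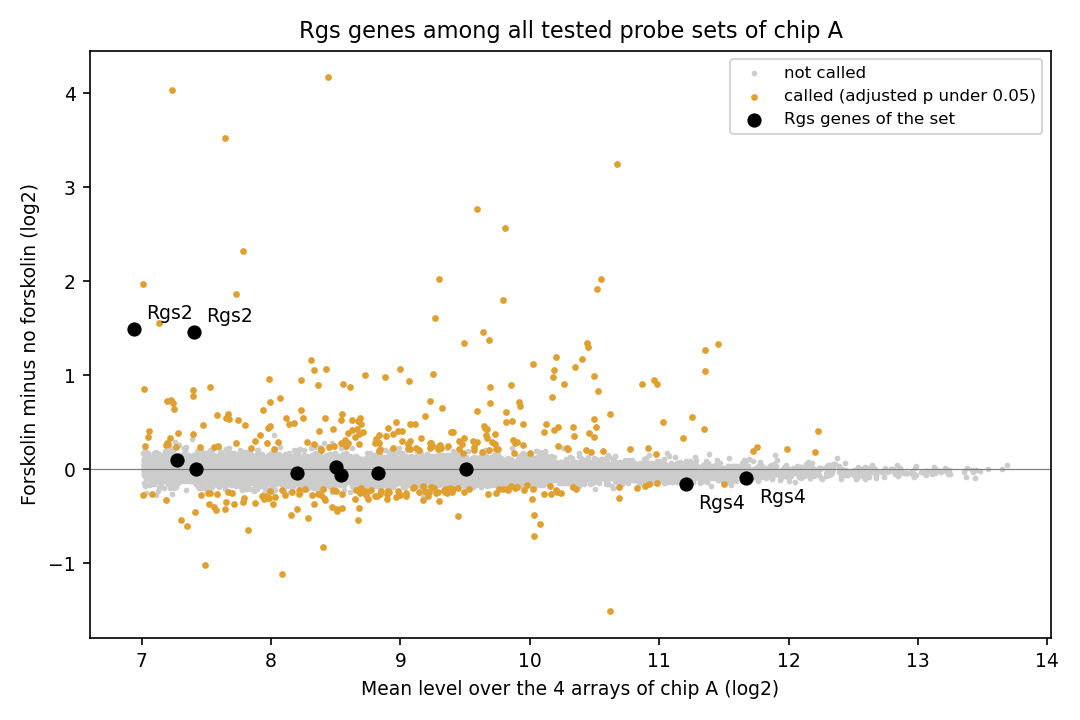
Change (forskolin minus no forskolin, log2, vertical) against mean level over the 4 arrays (log2, horizontal) for the 11106 tested probe sets of chip A, grey where not called and orange where called, with the 11 tested Rgs probe sets in black. Rgs2 lies near the dim end of the plot among the large rises, and Rgs4 near the bright end at -0.16 and -0.09.

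Some of these genes lie beside another RGS gene, of the 9 or outside them, among the protein-coding genes of the rat genome (RefSeq, GRCr8). Chromosome 13 carries 5 of the 9, namely Rgs2, Rgs4, Rgs5, Rgs7 and Rgs8. Rgs4 and Rgs5 are direct neighbours, and so are Rgs8 and Rgs16, which measured 8.12 and 8.14 with forskolin and 8.16 and 8.09 without (change 0.01, limma adjusted p = 0.969). On 1 side Rgs2 is followed by Rgs13 and Rgs1. Rgs13 was not analysed here. Rgs1, a regulator best known from lymphocytes, lay under the filter at 4.65 and 4.66 with forskolin and 4.62 and 4.63 without, a difference of 0.03 (log2, limma adjusted p = 0.817 in a fit of all probe sets of chip A).

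By the distance between their log2 values over the 4 arrays, each taken relative to its mean without forskolin, the genes most like Rgs2 (1387074_at) were Coq10b, Bdkrb2 and Ier3. The distances were 0.13, 0.20 and 0.21 (log2), and that of the other Rgs2 probe set was 0.26. Coq10b, which serves coenzyme Q function, measured 10.40 and 10.36 with forskolin, against 9.04 and 8.95 without. Bdkrb2, the bradykinin B2 receptor, which signals through Gq, measured 7.82 and 8.01 with forskolin, against 6.45 and 6.27 without (change 1.56 ± 0.08, SE). Like Rgs2, it lay below 7.02 without forskolin and was tested only through its forskolin arrays, so the size of its change is uncertain too. Ier3, an early response gene, measured 10.41 and 10.33 with forskolin, against 8.85 and 8.95 without. With 4 arrays in 2 groups, this likeness is mostly a likeness in the size of the change.

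The genes of the proteins that RGS proteins work with were not called on either chip. Of 79 genes in 9 lists of RGS relatives, partners, G protein subunits, effectors and other regulators, 66 had a probe set, and 56 were tested through their brightest probe set, 47 on chip A and 9 on chip B. None rose and none fell by limma, where the share called was 3.30% of tested probe sets for chip A and 0.159% for chip B. At an unadjusted limma p under 0.05, 2 were higher and 4 lower, all 6 of them on chip A, where 17.4% of tested probe sets passed that threshold, against 4.97% on chip B. The changes of the 56 genes ran from -0.17 to 0.12 (log2) with a median of 0.00. No further probe set of these genes was called, with or without the filter on dim probe sets.

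Among the other RGS proteins, 10 of 14 were on the chips and 8 were tested. The 8 included Axin1 and Axin2, and whether these act on alpha subunits was not tested. The smallest p-values were those of Rgs12, a large R12 scaffold, at 0.06 ± 0.05 (log2 change, SE, limma adjusted p = 0.525), and Rgs22 at 0.05 ± 0.05 (0.695). Of the partners, the receptor-like Gpr158, which recruits R7 proteins to the membrane, measured 0.10 ± 0.09 on chip B (log2 change, SE, limma adjusted p = 1.00). The list's median was 0.01 for the other RGS proteins and 0.02 for the 3 tested partners.

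Of 9 tested alpha subunits none was called. Gnas, the stimulatory subunit that activates adenylyl cyclase, measured 13.70 and 13.72 with forskolin, against 13.66 in both arrays without forskolin (log2). The groups did not overlap, and the change of 0.05 ± 0.02 (SE) was not called by limma (adjusted p = 0.281). Gna11, of the Gq class, changed by 0.06 ± 0.04 (SE, limma adjusted p = 0.535). None of 13 beta and gamma subunits was called. Gng10 measured -0.10 ± 0.04 and Gnb2 -0.07 ± 0.03 (log2 change, SE), with limma adjusted p = 0.276 and 0.278.

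The effectors were equally without a call. Of 4 tested adenylyl cyclases, the enzymes that forskolin activates, Adcy6 changed by -0.07 ± 0.04 and Adcy3 by 0.05 ± 0.04 (log2, SE), with limma adjusted p = 0.411 and 0.513. Of 4 phospholipase C beta enzymes, which Gq drives, Plcb1 changed by 0.08 ± 0.06 (log2, SE, limma adjusted p = 0.568) and Plcb4 by 0.03 ± 0.05 (0.849).

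Receptor kinases and beta-arrestins, which silence the receptor, included 5 tested genes. Grk6 measured 9.37 and 9.40 with forskolin, against 9.28 and 9.27 without, on its brightest probe set of chip A (change 0.11 ± 0.04, SE, limma adjusted p = 0.193). Its probe set on chip B differed by -0.11 (log2), in the opposite direction, and neither was called. Grk4 measured 7.11 and 6.77 with forskolin, against 7.12 and 7.10 without, so 1 forskolin array stood apart from the other 3. Its change was -0.17 ± 0.10 (SE, limma adjusted p = 0.407), and without forskolin replicate 1 it was -0.34 and called (adjusted p = 0.0348), the lowest adjusted p over its alternatives, which reached 1. Without forskolin replicate 2 the change was 0.00.

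Of 5 other regulators of alpha subunits, Ric8a, a chaperone and exchange factor for alpha subunits, measured 7.92 and 7.97 with forskolin, against 8.05 and 8.13 without (log2). The groups did not overlap, and limma did not call the change of -0.14 ± 0.05 (SE, adjusted p = 0.185). Gpsm2, which binds Gi subunits through GoLoco motifs, changed by -0.08 ± 0.05 (SE, limma adjusted p = 0.461). Of 5 enzymes of the N-degron pathway, which can destroy Rgs4 and Rgs5 protein, Metap1, which removes the first methionine, changed by -0.10 ± 0.04 (log2, SE, limma adjusted p = 0.244) on its brightest probe set. Its other probe set on chip A measured 0.08 ± 0.04 (limma adjusted p = 0.351), in the opposite direction, and neither was called. Ubr4, a ubiquitin ligase, changed by 0.12 ± 0.06 on chip A (log2, SE, limma adjusted p = 0.323). Its tested probe sets on chip B changed by 0.03 and 0.02 (log2), and their groups overlapped.

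**Figure D5:**
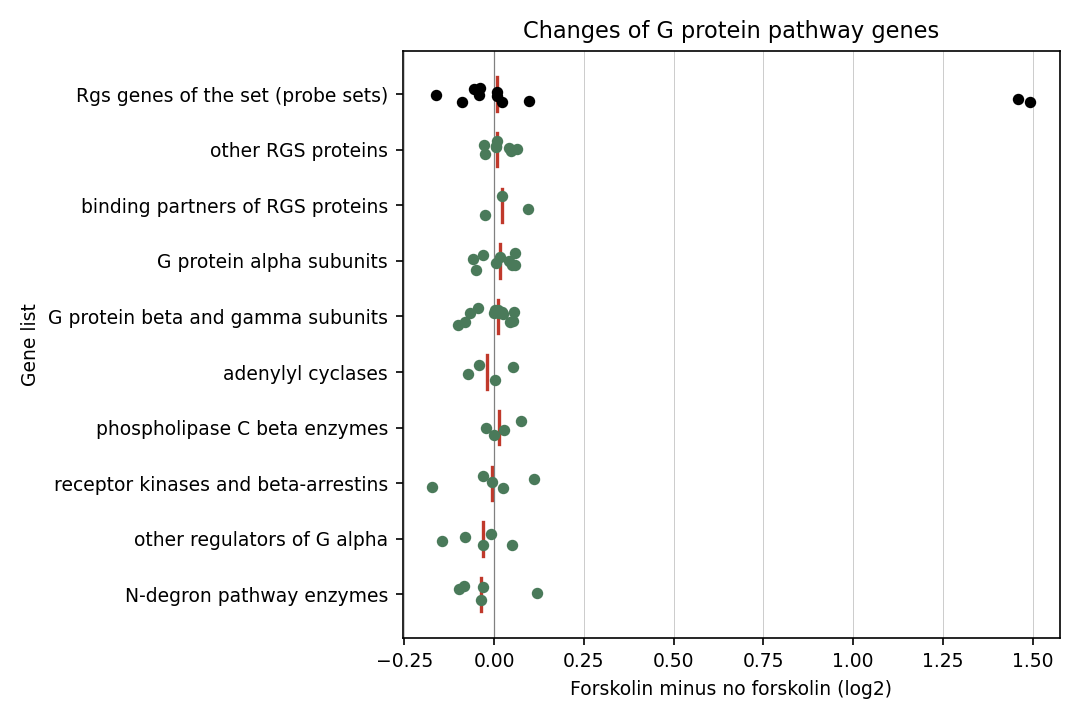
Change (forskolin minus no forskolin, log2, horizontal) of the 11 tested Rgs probe sets in black and of the 56 tested genes of 9 G protein pathway lists in green, 1 point each, with the median of each list as a red bar. The pathway genes lie between -0.17 and 0.12, and the 2 Rgs2 points at 1.46 and 1.49 are the only ones far from 0.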

How the data were processed

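Total RNA of PC12 cells was measured on 2 chips with 2 forskolin and 2 no forskolin arrays each. The authors deposited a table of log2 values per chip, and the steps behind them (background correction, probe summary, scaling) are not given here. Base 2 was taken from the range of the values. Medians of the arrays spread over 0.021 (chip A) and 0.025 (chip B), under the tolerance of 0.1, so no normalization was added.

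Symbols came from GEO's chip annotation, updated by Entrez number to RefSeq (GRCr8): 12783 probe sets of chip A and 7564 of chip B had 1 symbol, 312 and 100 had several, 2771 and 7612 had none, and 12748 and 7524 were matched. Probe sets under the 30th percentile of mean linear level were left out, which kept 11106 and 10693. Each chip was fitted alone in limma 3.58.1 (R 4.3.3; lmFit, eBayes with trend, two-sided) over all tested probe sets. A pathway gene counted through the brightest of its tested probe sets, chip A first. Tested on simulated data of chip A with 200 changed probe sets among 11106, the fit recovered 0% of 1.2-fold, 85.4% of 1.5-fold and 99.1% of 2-fold changes. On chip B, with 200 changed among 10693, it recovered 0%, 8.1% and 77.5% of the same sizes. The simulated noise followed each probe set's own spread within the groups, and these shares need not hold for the real arrays. There, smaller changes were called. The median change of the 140 probe sets called lower on chip A was -0.258 (log2), and Rgs4 1368506_at was called at a 1.12-fold fall. The number of arrays limits the precision. Alternatives were other filters, quantile normalization, median centring, no trend, a replicate block, a test against 1.2-fold and leaving out each array. Named were all probe sets of the 9 genes, the 2 pathway genes per list with the smallest p, the 3 genes most like Rgs2, and RGS genes beside Rgs2 or Rgs8 on the chromosome (Rgs1, Rgs16), the last chosen after values were seen. The members and lists were chosen with earlier results of these data known. Deviations of same-numbered arrays correlated at r = 0.00 on chip A and 0.20 on chip B.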

Additional observations from a re-analysis of the deposited data

How the results depend on the processing

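Both Rgs2 probe sets were called higher under every alternative that tested them, with changes of 1.36 to 1.55 (log2) for 1387074_at and 1.34 to 1.64 for 1368144_at. A filter at the 50th percentile, and a filter on the arrays without forskolin alone (added after seeing the data), left both untested, so 0 Rgs probe sets were then called higher and 1 in all. The count called lower, 1 as reported for Rgs4, was 0 with no filter, by eBayes without a trend, with the replicate block and in the test against 1.2-fold, and 0 to 1 when each array was left out in turn. The changes of Rgs4 1368506_at in those fits were -0.16 throughout, except -0.13 without no forskolin replicate 2 and -0.19 without no forskolin replicate 1, with limma adjusted p of 0.0654, 0.103, 0.108 and 1.00 for the first 4. Leaving out an array gave 2 to 3 Rgs probe sets called in all and 2 called higher each time.

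Over all probe sets of chip A, median centring called 277 lower, the replicate block 46 and the test against 1.2-fold 10, the last with 93 higher. Leaving out an array gave 83 to 192 lower and 168 to 257 higher, with 83 lower without forskolin replicate 1 and 85 without forskolin replicate 2. Of the pathway genes, 0 were called lower except 1, Grk4, without forskolin replicate 1 (range 0 to 1), and 0 were called higher under every alternative run. The replicate numbers pair no samples by the labels, and with 2 pairs the block is no check of a shared source. Without detection calls, the height of the dim Rgs2, Rgs3 and Rgs5 signals over background is not known. No Rgs probe set was on chip B, so no alternative was run there for them.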
